A study of Mus musculus with 6 samples.

Results

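The Ly6 family of surface proteins was represented by 8 genes, Ly6a, Ly6c1, Ly6c2, Ly6d, Ly6e, Ly6g, Ly6i and Ly6k, which were taken by name from a matrix of 20649 genes. All 8 were found in it. The cells were CD45-positive leukocytes, selected with magnetic beads from subcutaneous tumors of the mouse colon carcinoma line CT26 in BALB/c mice, which the methods give as young adult females. The sample labels list 3 tumors that received exoASO-Scramble and 3 that received exoASO-STAT6. These are exosomes loaded with a scrambled control antisense oligonucleotide (ASO) or with an ASO against the transcription factor STAT6, and both were given as 3 intratumoral injections, with tumors taken 24 hours after the last one. A selection on CD45 leaves out most tumor and stromal cells. The counts are of unique molecular identifiers (UMIs), each standing for 1 captured transcript, in 9235 droplet barcodes.

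Barcodes end in 1 of 6 suffixes, from 3 to 8, which match no sample label. No barcode could therefore be placed in a treatment, the treatments were not compared, and the suffixes are given below as libraries whose treatment is unknown. UMI totals per suffix ranged from 11492757 to 33902084 and barcodes per suffix from 867 to 2017. A barcode held a median of 11846 UMIs, and 16 barcode sequences occurred under more than 1 suffix. A UMI of Ptprc, which encodes CD45, was found in 91.8% of barcodes. Levels are given as UMIs per 1000000 UMIs (CPM) of a summed group with exact 95% Poisson intervals, which cover counting error only. Since the suffixes belong to no known group, no test over samples was made, and the spread is given as the values or the range over suffixes.

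Ly6 proteins are small, mostly glycosylphosphatidylinositol-anchored surface proteins built from the LU domain that they share with the urokinase receptor, and the mouse genes lie in a cluster that has expanded by duplication. Several are used to name blood cells by flow cytometry. Ly6C, encoded by Ly6c1 and Ly6c2, marks inflammatory monocytes that mature into macrophages in inflamed tissue and tumors, and is also found on plasmacytoid dendritic cells (pDCs), natural killer (NK) cells and memory T cells. Ly6G marks neutrophils, Ly6D marks the B-cell lineage and pDC-biased progenitors, and Ly6A, also called Sca-1, marks hematopoietic stem cells and activated lymphocytes. Ly6a and Ly6e are known to respond to interferon, and Ly6k is known from the male germ line.

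In the GENCODE M21 annotation of GRCm38, the 8 genes lay within 397071 bases of chromosome 15, in the order Ly6d, Ly6k, Ly6e, Ly6i, Ly6a, Ly6c1, Ly6c2 and Ly6g, and 6 of them were on the minus strand. Their likeness matters for the counts, because reads near the 3′ end of a transcript had to be assigned to 1 copy. The coding sequences of Ly6c1 and Ly6c2 were 97.7% identical. Of the last 300 bases of both transcripts, 293 could be aligned and 287 of these were identical. Ly6i and Ly6c2 were 81.5% identical over the coding sequence, Ly6a and Ly6c2 81.7%, Ly6g and Ly6c2 78.3%, Ly6d and Ly6c2 57.3%, and Ly6e and Ly6c2 54.5%. The last 90 coding bases, stop codon included, are shown for the 5 most alike members, 5′ to 3′ on the coding strand, to show how little separates them. Capitals mark bases that differ from Ly6c2. The stretches lie in the last exon at chr15:75108543-75108632 (Ly6c2, minus), chr15:75045402-75045491 (Ly6c1, minus), chr15:74979914-74980003 (Ly6i, minus), chr15:74995262-74995351 (Ly6a, minus) and chr15:75158650-75158739 (Ly6g, plus).
Ly6c2: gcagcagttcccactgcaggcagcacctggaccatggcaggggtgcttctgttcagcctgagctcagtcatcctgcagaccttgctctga
Ly6c1: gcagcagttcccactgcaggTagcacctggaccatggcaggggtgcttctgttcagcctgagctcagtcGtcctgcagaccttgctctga
Ly6i: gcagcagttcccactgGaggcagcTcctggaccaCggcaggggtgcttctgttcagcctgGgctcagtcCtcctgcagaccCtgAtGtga
Ly6a: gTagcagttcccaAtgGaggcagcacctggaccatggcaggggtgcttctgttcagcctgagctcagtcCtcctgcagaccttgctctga
Ly6g: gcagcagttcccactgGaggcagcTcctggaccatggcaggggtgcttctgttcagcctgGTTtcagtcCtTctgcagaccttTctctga
Ly6c1 differed from Ly6c2 at 2 of these 90 positions, Ly6a at 4, and Ly6i and Ly6g at 8 each. The split of UMIs between Ly6c1 and Ly6c2 is therefore uncertain, and how it was affected by mapping reads of BALB/c mice to the mm10 build was not tested. Of the last 300 bases of the Ly6i and Ly6c2 transcripts, 285 could be aligned and 251 of these were identical. The part of read assignment in the counts of Ly6i beside Ly6c2 was not tested either.

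Cells were placed in groups by marker genes that are not members. A barcode was early monocyte with at least 1 UMI of Vcan or Hp and 1 of Csf1r, and C1q-high with at least 60 UMIs of C1qa, C1qb and C1qc per 10000. It was a Rsad2-positive macrophage with a UMI of the interferon-induced gene Rsad2 and at least 2 of Csf1r and Adgre1. Neutrophils needed 5 UMIs of S100a9, pDCs 2 of Siglech and dendritic cells 1 of Flt3. CD8 T, Foxp3 T, NK and B cells were gated on their own genes with at most 1 UMI of Csf1r and Adgre1. Rules overlapped, and a barcode that met several went to the first of pDC, neutrophil, Foxp3 T, CD8 T, NK, B, C1q-high, dendritic, Rsad2-positive macrophage and early monocyte. This gave 181 pDC, 1022 neutrophil, 58 Foxp3 T, 219 CD8 T, 295 NK, 37 B, 2597 C1q-high, 186 dendritic, 1565 Rsad2-positive macrophage and 915 early monocyte barcodes, and left 2160 in no group. Markers that the rules did not use were highest or second highest in the matching group for 4 of 5 in early monocytes, 3 of 4 in CD8 T cells and all those measured in the other groups. In the neutrophil, pDC and dendritic groups 91.5%, 66.9% and 51.6% of barcodes also had 2 or more UMIs of Csf1r and Adgre1. Whether these are pairs of cells in a droplet was not tested.

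Ly6a was present in every group and in the sums was highest in Foxp3 T cells, at 1451 CPM (1332 to 1578). Its values in Foxp3 T cells in suffixes 3 to 8 were 304, 948, 903, 2277, 714 and 1727, from 3 to 15 barcodes each. These exceeded Rsad2-positive macrophages in 3 of 6 suffixes only. Rsad2-positive macrophages followed at 1155 CPM, C1q-high cells at 1081, pDCs at 1024, neutrophils at 930.5, dendritic cells at 765, early monocytes at 730.1 and B cells at 560 (323 without suffix 6). The ranges over suffixes overlapped between all neighbours in this order. Within suffixes, pDCs were above neutrophils in 6 of 6, and neutrophils were below the set of monocytes and macrophages described further on in 6 of 6 (0.84 times in the sums, 0.61 to 0.91 by suffix). Early monocytes were also below C1q-high cells in 6 of 6 suffixes, by 0.68 times in the sums (0.66 to 0.69), although their ranges overlapped. The order of the rules took barcodes with a Rsad2 UMI out of the early monocyte group, which lost 1809 of 2724 barcodes to earlier groups. CD8 T cells and NK cells had the lowest levels, 303 CPM and 266 CPM. Foxp3 T cells exceeded CD8 T cells in 6 of 6 suffixes, by 4.79-fold in the sums (4.29 to 5.35) and by 1.88- to 9.43-fold by suffix.

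Ly6e was highest in Rsad2-positive macrophages and C1q-high cells and lowest in NK cells. It was 888 CPM in Rsad2-positive macrophages, 861 in C1q-high cells, 778 in early monocytes, 746 in pDCs, 727 in neutrophils and 720.4 in B cells. Dendritic cells, Foxp3 T cells and CD8 T cells had 431, 381 and 338 CPM. In NK cells, Ly6e was 85.7 CPM (74.8 to 97.7), with 38.8 to 145 over the suffixes, against 599 to 1163 in early monocytes, so these 2 groups did not overlap. To compare shares of barcodes at an equal depth, 1000 UMIs were drawn from each, and the 77 barcodes with fewer were set aside. At that depth 7.56% of NK barcodes had a Ly6e UMI (4.80 to 11.2%, exact Clopper-Pearson) and 50.3% of C1q-high barcodes (48.4 to 52.3%). Without thinning these shares were 31.9% and 94.5%, at median depths of 6577 and 17828 UMIs.

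Ly6c2 separated early from late cells of the monocyte lineage. In early monocytes it was 531 CPM (517 to 545), with values of 283, 360, 324, 724, 1000.1 and 506 in suffixes 3 to 8. In C1q-high cells it was 67.5 CPM (65.3 to 69.8), with 58.0, 56.8, 43.1, 129, 88.2 and 62.5. Every early monocyte value lay above every C1q-high value. The sums differed 7.86-fold (7.53 to 8.20), and 12.98-fold with stricter marker thresholds. At 1000 UMIs a barcode, 34.4% of early monocytes (31.3 to 37.6%) and 5.27% of C1q-high cells (4.44 to 6.21%) had a Ly6c2 UMI. Rsad2-positive macrophages had 489 CPM, close to early monocytes, though lower than them in 6 of 6 suffixes (0.92 times in the sums, 0.61 to 0.94 by suffix).

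Outside this lineage Ly6c2 was high in pDCs, at 502 CPM (479 to 526), in the 37 B barcodes, at 470.3 CPM (372 to 586; 309 without suffix 4), and in NK cells, at 409 CPM (385 to 434). The 60 pDC barcodes with at most 1 UMI of Csf1r and Adgre1 had 1331 CPM (1231 to 1438), and the other 121 had 370.2 CPM (349 to 392), a split made after the values had been seen. Dendritic cells resembled C1q-high cells at 95.1 CPM, and pDCs exceeded them in 6 of 6 suffixes without overlap (5.28-fold in the sums, 4.69 to 5.94). NK cells exceeded CD8 T cells, at 171 CPM, in 6 of 6 suffixes (2.39-fold, 2.14 to 2.68), although the ranges of both groups overlapped and suffix 5 held 3 CD8 T barcodes with 0 Ly6c2 UMIs, which decides nothing there. Neutrophils had 257 CPM with a wide spread of 74.5 to 523, and 494 CPM (441 to 550.1) in the 87 barcodes with at most 1 UMI of Csf1r and Adgre1.

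Ly6c1 was likewise lower in C1q-high cells than in early monocytes, but differed from Ly6c2 in its order over the lymphocytes. In the sums it was highest in Foxp3 T cells, at 119 CPM (86.9 to 159) from 45 UMIs in 11 barcodes, but these exceeded pDCs in 2 of 6 suffixes only, ranged from 0 to 253 CPM and had 105 CPM without suffix 4 against 125 CPM in pDCs. Ly6c2 ranked eighth there at 156 CPM, and B cells had 107 CPM (48.1 without suffix 4). Ly6c1 was 95 CPM in early monocytes, 96.0 in Rsad2-positive macrophages, 108 in pDCs and 86.4 in NK cells, and 19.4 in C1q-high cells. The 60 pDC barcodes with at most 1 UMI of Csf1r and Adgre1 had 258 CPM of Ly6c1 (215 to 308), and the other 121 had 84.2 CPM. Foxp3 T cells were gated at this same limit and were below the former value in the sums. Early monocytes were higher than C1q-high cells in 6 of 6 suffixes, by 4.89-fold in the sums (4.47 to 5.34), but the lowest early monocyte suffix, at 19.7 CPM, was below the highest C1q-high suffix, at 44.3 CPM. Per 100 Ly6c2 UMIs there were 17.9 Ly6c1 UMIs in early monocytes (16.7 to 19.2), 19.6 in Rsad2-positive macrophages, 18.7 in neutrophils, 21.5 in pDCs, 21.1 in NK cells and 28.8 in C1q-high cells (26.8 to 30.9). In Foxp3 T cells the ratio was 76.3 per 100 (50.6 to 114), from 45 Ly6c1 and 59 Ly6c2 UMIs. Suffix 7 held 29 of those Ly6c2 UMIs and 1 Ly6c1 UMI in 6 barcodes, and without it the ratio was 147 per 100 (90.2 to 242) and Ly6c2 fell from 156 to 85.8 CPM.

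Ly6i, the gene next to Ly6a, was found mainly in the monocyte lineage. It was 56.8 CPM (52.3 to 61.5) in early monocytes, with 18.3, 68.2, 22.7, 78.4, 83.9 and 62.9 in suffixes 3 to 8. Rsad2-positive macrophages had a like level of 58.6 CPM (55.6 to 61.7), with 29.3 to 76.0 over suffixes, and the order of these 2 groups changed between suffixes. C1q-high cells had 7.57 CPM (6.83 to 8.37), with 6.91, 6.16, 9.84, 12.3, 11.01 and 4.10 in suffixes 3 to 8, all below the lowest early monocyte suffix. The fold between the sums of early monocytes and C1q-high cells was 7.50 (6.58 to 8.54), between 2.31 and 15.4 by suffix, and 11.3 with stricter marker thresholds.

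Lymphocytes held little Ly6i even where they held much Ly6c2. NK cells had 12 Ly6i UMIs, or 4.61 CPM (2.38 to 8.05; 2.82 without suffix 8), CD8 T cells had 4, and Foxp3 T and B cells had 0, which allows up to 7.95 CPM and 17.9 CPM by 3 counts. NK cells were below early monocytes in 6 of 6 suffixes without overlap. The pDC level was 10.4 CPM (7.31 to 14.3), and the 60 pDC barcodes with few macrophage UMIs had 10.3 CPM from 5 UMIs, beside their high Ly6c2. Neutrophils had 23.7 CPM and dendritic cells 11.5 CPM, and dendritic barcodes with at most 1 UMI of Csf1r and Adgre1 had 3.91 CPM from 4 UMIs. The same split of neutrophils went the other way, with 36.3 CPM (23.3 to 54.1) in the 87 barcodes with at most 1 such UMI and 23.4 CPM in the rest.

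**Figure D1:**
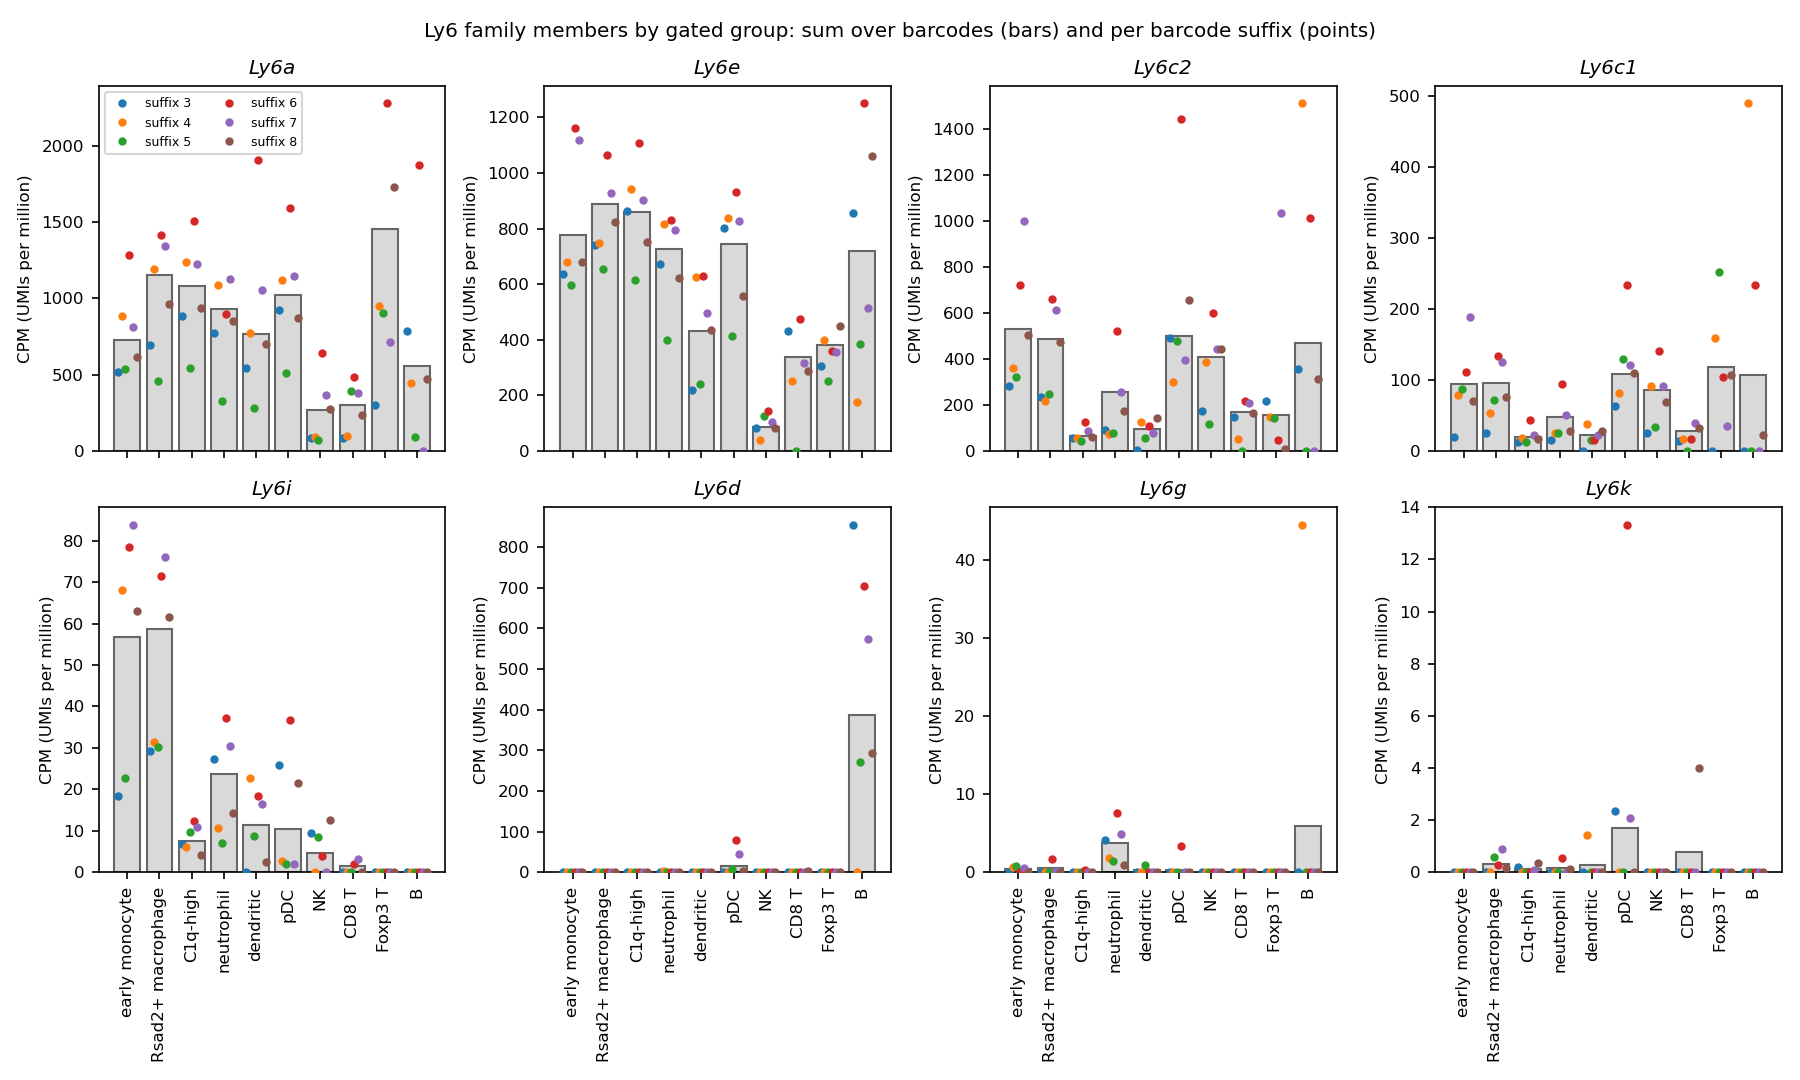
Level of each of the 8 members (CPM, linear axes that differ between panels) in 10 gated groups, with bars for the sum over barcodes and points for the 6 barcode suffixes. Ly6c2 and Ly6i were lower in all C1q-high points than in any early monocyte point, whereas the points of Ly6a, Ly6c1 and Ly6e overlapped between these groups.

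Ly6d was rare and lay mostly in barcodes with B-cell or pDC transcripts. The matrix held 191 Ly6d UMIs in 56 barcodes. Of these barcodes, 42 had 2 or more UMIs of B-cell genes, 11 others had at least 2 of Siglech, and 3 had neither. Of the 39 barcodes with at least 2 UMIs, 31 had 2 or more UMIs of the B-cell genes Cd79a, Cd79b and Ms4a1, the other 8 had at least 2 of Siglech, and 0 had neither. Among those 31, 15 also had 2 or more UMIs of Csf1r and Adgre1. B cells had 387 CPM (299 to 493), with 855, 0, 272, 703, 573 and 293 in suffixes 3 to 8, from 2 to 14 barcodes each, so that only suffix 4, with 2 barcodes, had none. In pDCs Ly6d was 14.3 CPM (10.7 to 18.8), with 0, 0, 7.73, 80.0, 45.9 and 2.39, and 1 barcode held 15 of the 51 UMIs. It was 8.27 CPM without suffix 6, 23.8 CPM without suffix 4 and 51.3 CPM in the 60 pDC barcodes with few macrophage UMIs.

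For comparison, a monocyte/macrophage set was formed of 4538 barcodes with at least 2 UMIs of Csf1r and Adgre1, outside the neutrophil, pDC and dendritic rules and with at most 1 UMI of a list of lymphocyte genes. It held 1 Ly6d UMI, so the pDC level was 889-fold higher with an interval of 152 to 35779. With 1 suffix left out the fold ranged from 439 (without suffix 6) to 1199 (without suffix 4). It had no value without suffix 5, which held that UMI. When barcodes with lymphocyte UMIs were kept in the set the fold was 26.4.

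Ly6g was detected at a low level even where neutrophil transcripts were plentiful. There were 113 UMIs in 67 barcodes, of which 86 UMIs in 45 barcodes lay in the neutrophil group, at 3.69 CPM (2.95 to 4.56). The values in suffixes 3 to 8 were 4.11, 1.78, 1.39, 7.63, 4.86 and 0.882, and each was above that of the monocyte/macrophage set in the same suffix. The set had 0.258 CPM from 16 UMIs. The fold was 14.3 (8.34 to 26.2), 8.71 with stricter thresholds, and 44.4 without suffix 6, which held most UMIs of the set. A Ly6g UMI was found in 4.40% of neutrophil barcodes and in 10.5% of the 190 barcodes with 100 or more S100a9 UMIs, at median depths of 18961 and 23876 UMIs. The NK and CD8 T groups had 0 UMIs, which by 3 counts allows up to 1.15 and 1.18 CPM, and the 0 of Foxp3 T cells allows 7.95 CPM, above the neutrophil level. All 86 neutrophil UMIs were in barcodes with at least 2 UMIs of Csf1r and Adgre1, and the 87 other neutrophil barcodes, with a median of 6562 UMIs, had 0, which by 3 counts allows up to 4.54 CPM. The former had 3.80 CPM (3.04 to 4.69), so a difference between them was not detectable at this depth.

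Ly6k was close to absent, with 28 UMIs in 21 barcodes, and its highest level was 1.68 CPM in pDCs, from 6 UMIs. In early monocytes it had 0 UMIs, which by 3 counts allows up to 0.283 CPM.

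The change from monocyte to macrophage was then followed in the monocyte/macrophage set by the summed level of C1qa, C1qb and C1qc, complement genes that macrophages gain as they mature. Bins of under 2, 2 to 10, 10 to 30, 30 to 60, and 60 or more C1q UMIs per 10000 held 1423, 386, 320, 518 and 1891 barcodes. Ly6c2 fell along them from 723 CPM (709 to 737) to 557, 246, 177 and 55.0 CPM (52.6 to 57.6). It was highest in the first bin and lowest in the last in 6 of 6 suffixes, and the first bin exceeded the last 13.1-fold (12.5 to 13.8), between 7.35- and 18.4-fold by suffix, without overlap.

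Ly6i fell to a like extent. It was 97.5 CPM (92.5 to 103) and 92.3 CPM (82.7 to 103) in the first bins, whose intervals overlapped (in suffix 4 it was 72.9 and then 129.7 CPM), and then 36.6, 20.8 and 7.65 CPM. In the first bin its values in suffixes 3 to 8 were 65.9, 72.9, 38.6, 108, 140.3 and 111, and in the last bin 4.82, 7.53, 9.34, 11.95, 10.8 and 4.25. The fold between both ends was 12.8 (11.2 to 14.6), and Ly6i was lowest in the last bin in 6 of 6 suffixes. Thinned to 1000 UMIs, 8.71% of barcodes of the first bin had a Ly6i UMI and 1.11% of the last, against 0 of 291 NK barcodes, of which up to 1.03% could have had a UMI at this depth by 3 counts. Unthinned, 2.03% of NK barcodes had a Ly6i UMI. The median depths before thinning were 8993, 16517 and 6577 UMIs. Ly6c1 fell 8.22-fold (7.45 to 9.08), from 129 to 15.7 CPM.

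Ly6a and Ly6e did not share in this fall. Ly6a had 1042, 1333, 1154, 1051 and 1112 CPM along the bins, and the first bin was higher than the last in 1 of 6 suffixes (0.94 times in the sums, 0.83 to 1.16 by suffix). Ly6e had 990, 929, 809, 786 and 917 CPM, with a first to last ratio of 1.08 and 0.885 to 1.20 by suffix. Suffixes lay further apart than bins did. Ly6a spanned 563 CPM (suffix 5) to 1539.8 CPM (suffix 4) in the first bin and 596 CPM (suffix 5) to 1507 CPM (suffix 6) in the last.

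**Figure D2:**
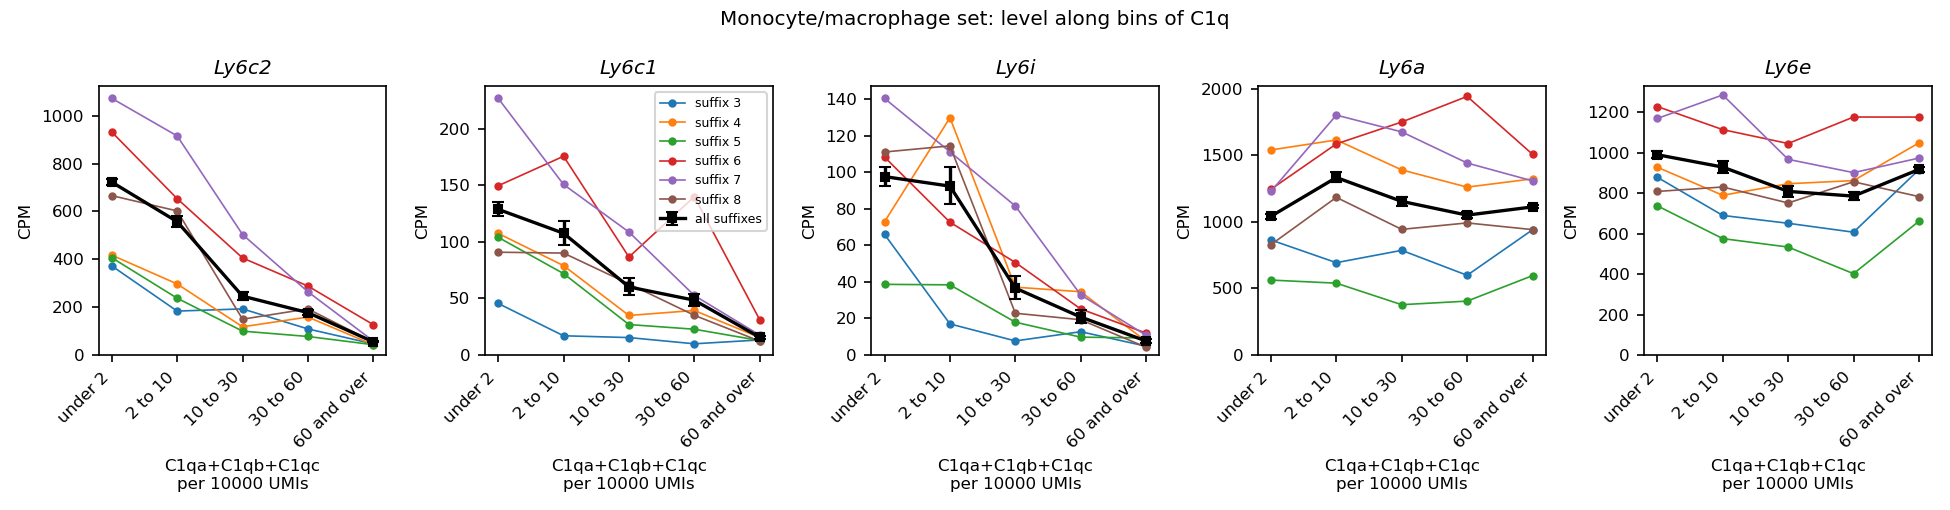
Level (CPM) of 5 members along bins of C1q UMIs per 10000 in the monocyte/macrophage set, with a coloured line for each barcode suffix and black squares for the sum with exact 95% Poisson intervals. Ly6c2 dropped from 723 to 55.0 CPM and Ly6i from 97.5 to 7.65 CPM, while Ly6a and Ly6e stayed near their starting levels.

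Counted over all genes, by the rule of a change of at least 2-fold in the sums with the same direction in all 6 suffixes and among genes at 10 CPM or more in either group, 3 of the 5 members that passed this filter were higher in early monocytes than in C1q-high cells (Ly6c1, Ly6c2 and Ly6i), where 2.84% of 7899 genes were, and 0 were lower, where 2.71% of genes were. Ly6c1 and Ly6c2 passed the filter in both groups, whereas Ly6i passed it in early monocytes alone, where it was high, so that its call was in part fixed by the filter. The other 3 members, Ly6d, Ly6g and Ly6k, were under 10 CPM in both groups. Between the first and last C1q bins the same 3 members were higher, against 4.63% of 7797 genes, and 0 were lower, against 5.53%. Ly6i again passed the filter only in the bin where it was high. The median fold over all genes was 0.98 in the first comparison and 0.95 in the second.

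The counts of established genes give a scale for this. Of 10 monocyte genes 8 were higher in early monocytes than in C1q-high cells, with Plac8 at 1772 against 409 CPM and Ccr2, the receptor that brings monocytes into tissue, at 683 against 189 CPM. Of 10 macrophage genes 9 were measured and 4 were lower, with Apoe, a lipid carrier, at 1070.2 against 2526 CPM. The 7.86-fold difference of Ly6c2 was larger than those of Plac8 (4.33-fold) and Ccr2 (3.60-fold).

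Ly6i and Ly6c2 were also found in the same barcodes. In the monocyte/macrophage set thinned to 1000 UMIs, 12.1% of the 874 barcodes with a Ly6c2 UMI had a Ly6i UMI (10.0 to 14.5%), and 2.35% of the 3660 without one (1.88 to 2.89%), a difference of 9.78 percentage points that depended on the thinning depth, from 4.04 points at 500 UMIs to 25.1 points without thinning. In the full counts the Ly6c2-positive barcodes had 131 CPM of Ly6i and the others 19.3 CPM, and the difference had the same direction in 6 of 6 suffixes. The median depth of the positive barcodes, 9422 UMIs, was below that of the others, 12369 UMIs. Both genes fall along C1q, so the pairing was looked at within bins. With under 2 C1q UMIs per 10000 the shares were 14.6% and 5.26%, and with 60 or more they were 9.09% of 88 barcodes (4.01 to 17.1%) and 0.722% of 1801 (0.385 to 1.23%). In the 3 middle bins the positive barcodes had the higher share too, with intervals that overlapped. They were closest to parting in the bin of 30 to 60, where they were 3.12 to 17.3% and 0.633 to 3.21% and met only at their ends. The share of Ly6i also differed by Ly6a, at 6.44% of barcodes with a Ly6a UMI and 2.61% of those without, and by Ly6e, at 5.62% and 2.79%. With under 2 C1q UMIs it was 14.8% and 5.28% by Ly6a, much as by Ly6c2. The difference by Ly6a was 4.91 points at 2 to 10 and 2.48 at 10 to 30, against 4.13 and 1.06 by Ly6c2. At 30 to 60 and at 60 or more it was smaller, at 3.46 and 1.81 points against 6.76 and 8.37. With 60 or more C1q UMIs the share was 2.02% and 0.211% by Ly6a and 1.12% (0.559 to 1.99%) and 1.10% (0.531 to 2.02%) by Ly6e, where the full counts gave 8.75 and 6.40 CPM of Ly6i.

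Arranged by Ly6c2 itself, Ly6i rose at every step. It was 6.11 CPM (5.32 to 6.97) in the 2517 barcodes with no Ly6c2 UMI, 19.8 CPM with up to 2 Ly6c2 UMIs per 10000, 62.2 CPM with 2 to 5, 123 CPM with 5 to 10 and 168 CPM (157 to 179) in the 516 barcodes with over 10. Ly6e rose along the same steps from 758 to 893, 1004, 1206 and 1646 CPM. Ly6a rose from 875 to 1681 CPM at 5 to 10 and was 1628 CPM in the last step, and the C1q sum fell from 9041 to 878 CPM.

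**Figure D3:**
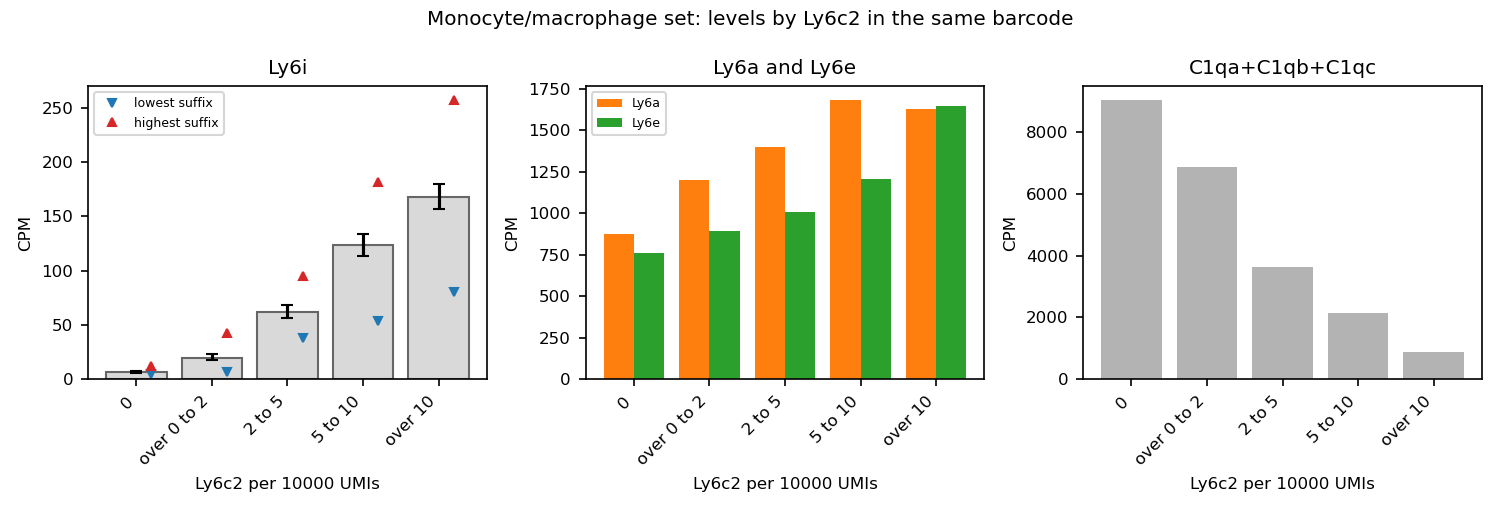
Levels (CPM) in the monocyte/macrophage set by the Ly6c2 count of the same barcode per 10000 UMIs: Ly6i with exact 95% Poisson intervals and the lowest and highest suffix (left), Ly6a and Ly6e (middle) and the C1q sum (right). Ly6i rose from 6.11 to 168 CPM as the C1q sum fell from 9041 to 878 CPM.

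Relative to Ly6c2, Ly6i stayed between 9.22 and 16.6 per 100 UMIs in the sums of myeloid groups other than pDCs, and was lower in pDCs, NK cells and CD8 T cells. Per 100 Ly6c2 UMIs there were 13.5 Ly6i UMIs (12.8 to 14.3) in the first C1q bin, then 16.6, 14.9 and 11.7, and 13.9 (12.1 to 15.9) in the last. Single suffixes spread more widely, from 9.26 in suffix 3 to 43.7 in suffix 4 in the bin of 2 to 10. The gated groups gave 10.7 in early monocytes, 12 in Rsad2-positive macrophages, 11.2 in C1q-high cells, 12.1 in dendritic cells and 9.22 in neutrophils. In the sums, barcodes with at most 1 UMI of Csf1r and Adgre1 lay under this range. They held 24 Ly6i beside 326 Ly6c2 UMIs in neutrophils, and 4 beside 63 in dendritic cells. These Ly6i counts are small and no interval was computed, so a difference from the range is not shown. In pDCs the ratio was 2.07 (1.45 to 2.86), in NK cells 1.13 (0.580 to 1.98) and in CD8 T cells 0.920 (0.249 to 2.37). Foxp3 T and B cells had 0 Ly6i UMIs beside 59 and 79 Ly6c2 UMIs, which by 3 counts allows up to 5.08 and 3.80 per 100. The NK ratios in suffixes 3 to 8 were 5.45, 0, 7.14, 0.662, 0 and 2.82, and the early monocyte ratios 6.47, 19.0, 7.01, 10.8, 8.39 and 12.4. NK cells were thus lower in each suffix except suffix 5, where they held 22 barcodes. In suffix 3, where they held 35 barcodes, they were only slightly lower. Both of these NK ratios rest on few Ly6i UMIs. Between the first and last C1q bins the intervals of the sums overlapped, but single suffixes moved both ways, from 9.5 to 21.7 in suffix 5 and from 16.7 to 7.82 in suffix 8. The part of free RNA in the low Ly6c2 and Ly6i of C1q-high cells was not tested.

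**Figure D4:**
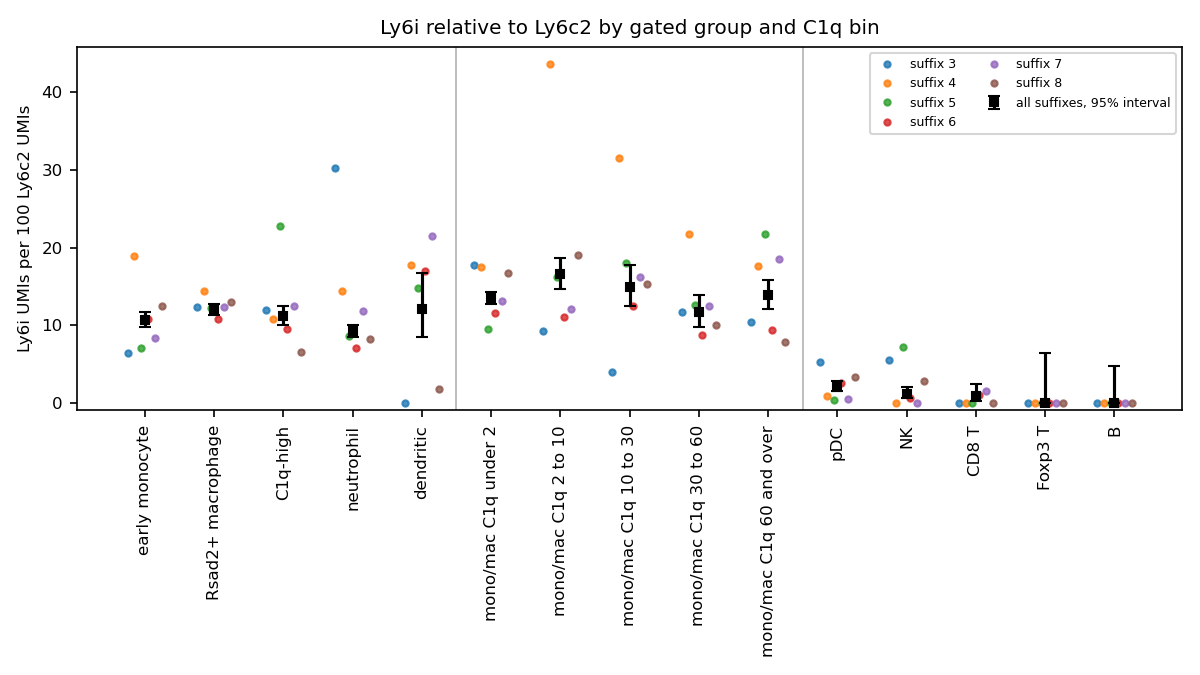
Ly6i UMIs per 100 Ly6c2 UMIs in myeloid groups (left), along C1q bins of the monocyte/macrophage set (middle) and in pDCs and lymphocytes (right), with black squares for the sum and its exact 95% interval and coloured points for the 6 barcode suffixes. The sums lay between 9.22 and 16.6 in the left and middle blocks and at or below 2.07 in the right block.

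Interferon exposure was read from Rsad2, an antiviral gene that interferon induces. In the monocyte/macrophage set, 1800 barcodes had a Rsad2 UMI and 2738 had none. Ly6a was 1391 CPM in the former and 889 CPM in the latter, a 1.56-fold difference (1.54 to 1.59) seen in 6 of 6 suffixes, at 1.25- to 1.62-fold. Its positive values in suffixes 3 to 8 were 1074, 1670.0, 754, 1562, 1682 and 1121 CPM, and the negative values 778, 1177, 466, 1253, 1086 and 779 CPM. The ranges overlapped, and only the pairs within a suffix were ordered. Ly6e was 1.28-fold higher (1.26 to 1.31), and Ly6c2, Ly6c1 and Ly6i were 2.12-, 2.06- and 1.73-fold higher in the sums, each in 6 of 6 suffixes. Within suffixes the folds were smaller for most libraries, at 1.5 to 2.51 for Ly6c2 (median 1.55), 1.34 to 2.05 for Ly6c1 (median 1.77) and 1.12 to 2.24 for Ly6i (median 1.42).

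By the rule of 2-fold in the sums with 1 direction in all suffixes, Ly6c1 and Ly6c2 were higher among the 5 members measured, against 0.763% of 7605 genes, and 0 were lower, against 0.0263%. The median fold was 1.70 over the 5 members and 0.97 over all genes. Of 15 interferon-induced genes 14 were in the matrix and 8 passed the same rule. Among those with the highest levels, Ifitm3 (1.25-fold), Cxcl10 (1.59-fold) and Gbp2 (1.70-fold) did not reach 2-fold. Rsad2 itself was higher at low C1q, with 648 CPM in the first bin and 139.8 CPM in the last.

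Within each C1q bin all 5 members were higher in the sums of Rsad2-positive barcodes, with another order of folds, but single suffixes often disagreed in the middle bins. At 10 to 30, Ly6c2 was 1.82-fold higher in the sums with a median of 1.13 over suffixes, Ly6c2, Ly6c1 and Ly6e were higher in 4 of 6 suffixes and Ly6i in 3 of 6. At 30 to 60, Ly6i was higher in 3 of 6 and Ly6e in 4 of 6. Among cells with 60 or more C1q UMIs per 10000, Ly6a was 1456 against 903 CPM (1.61-fold, 6 of 6 suffixes) and Ly6c2 92.5 against 32.2 CPM (2.87-fold, 2.61 to 3.16, 6 of 6 suffixes and no overlap). Ly6i there was 11.1 against 5.55 CPM, 2.0-fold higher in the sums (1.55 to 2.58) but in 4 of 6 suffixes. In the bin of under 2, the folds were 1.24 for Ly6a, 1.30 for Ly6e, 1.46 for Ly6c2, 1.35 for Ly6c1 and 1.27 for Ly6i, in 5 or 6 of 6 suffixes. Ly6a differed most at 10 to 30, by 2.40-fold (2.25 to 2.56; 1.08 to 2.71 by suffix), from 148 and 172 barcodes. The fold of Ly6i at 30 to 60 was 1.35 with an interval of 0.958 to 1.90, so no difference was detectable at that depth.

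**Figure D5:**
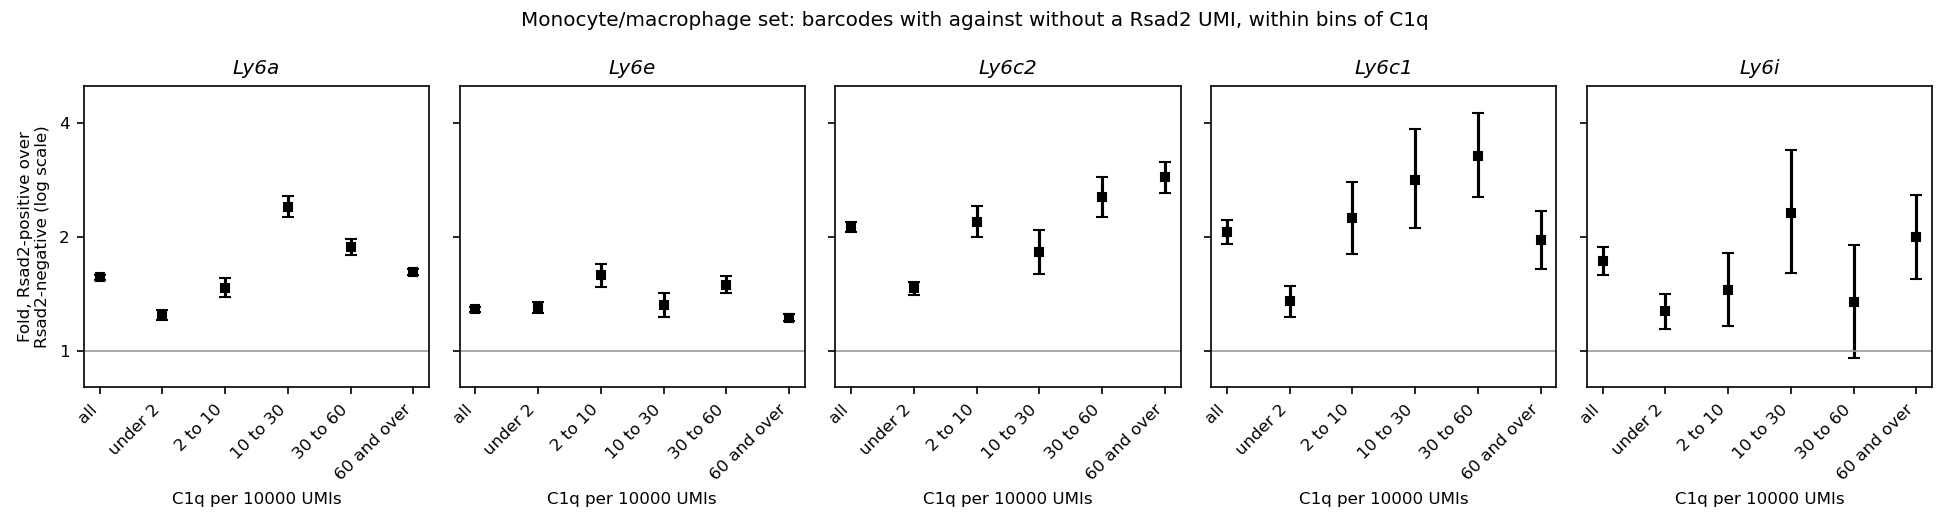
Fold of 5 members between barcodes with and without a Rsad2 UMI in the monocyte/macrophage set, over all barcodes and within bins of C1q UMIs per 10000 (log axis), with exact 95% intervals for counting error. All points lay above 1, but the interval of Ly6i at 30 to 60 (0.958 to 1.90) included it. Ly6c2 was 1.46-fold higher in the lowest bin and 2.87-fold in the highest. It did not rise steadily, with 2.19, 1.82 and 2.55 between.

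In NK and CD8 T cells, Ly6a spanned a wide range over suffixes. NK cells had 82.9, 91.7, 76.1, 642, 366 and 278 CPM in suffixes 3 to 8, so that suffixes 6, 7 and 8 were high and 3, 4 and 5 low. The summed interferon list in the same NK cells was 1298, 1027, 1641, 1409, 1143 and 2203 CPM, which follows another order. In early monocytes, Rsad2-positive macrophages and C1q-high cells, however, the list was highest in suffixes 6, 7 and 8. It was 4546, 5138, 3609, 6790, 6658 and 5889 CPM in early monocytes and 4398, 4391, 3500, 5547, 4738 and 4612 CPM in C1q-high cells. In CD8 T and Foxp3 T cells these suffixes were not the highest. A link of NK Ly6a to interferon was not tested. C1q-high cells of suffix 4 had 1238 CPM of Ly6a, the second highest of that group, while NK cells of suffix 4 were among the lowest. CD8 T cells had 84.0, 100.5, 392, 488, 381 and 236 CPM, and suffix 5 held 3 CD8 T barcodes. NK Ly6a was 176 CPM without suffix 6 and 351 CPM without suffix 4, against 266 CPM in all. NK Ly6c2 was 175, 389, 118, 600.0, 443 and 445 CPM. The treatment of the suffixes is unknown, and its part in these values was not tested.

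Across 42 sums by group and suffix with at least 20 barcodes, the genes whose log2 level followed a member most closely were found among 7931 genes. These correlations are descriptions, as the sums share libraries. For Ly6c2 they were Ly6c1 (Pearson r = 0.90), which shares its sequence, Plac8 (0.87), Diaph1 (0.74), Fndc3a (0.69) and Spty2d1 (0.69). Ly6i followed Hp (0.86), a gating gene, then Rapgef2 (0.85), Cers6, Rhou and Fbxl5 (0.83 each), and Ly6c2 itself at 0.36. Ly6a followed Fcgr4, Fbxo6, Hk3 and Gbp2 (0.87 each) and Rbfa (0.86), with Ly6e at 0.85. Ly6e followed Ifi27l2a (0.93), Cnih4 (0.92), Aprt (0.91), Il18bp and Rhbdf2 (0.90 each). For Ly6d the highest were Parp3 (0.59), Heg1 (0.58), Gria3 (0.57), Gm30211 (0.56) and Klra17 (0.55), but the minimum of 20 barcodes left out all B-cell sums and the pDC sum of suffix 6, where Ly6d was high.

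Other genes of the Ly6 and urokinase receptor superfamily were largely silent in these cells. Of 30 listed, 21 were in the matrix, 4 of these had 0 UMIs and 15 stayed under 10 CPM in each gated group. The 2 above this level were Plaur, the urokinase receptor, at 457 CPM in early monocytes, and Cd59a, an inhibitor of the complement membrane attack complex, at 59.5 CPM in pDCs.

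The RefSeq promoter table for GRCm38.p6 held 3 of the members, Ly6c1, Ly6c2 and Ly6g. The 250 bases before the first listed start of Ly6c2 (chr15:75111972-75112221, minus) and of Ly6c1 (chr15:75048838-75049087, minus) are shown because these genes moved together. In a gapped alignment 164 of 250 bases were identical. Both listed stretches of Ly6g shared 172 and 178 bases with the Ly6c1 stretch, and 139 and 189 with the Ly6c2 stretch. The likeness is therefore not particular to Ly6c1 and Ly6c2. Capitals mark GAGGAAG, a core bound by ETS factors such as PU.1, searched on both strands along with TTCNNNGAA (GAS), TTCNNTTTC (ISRE-like) and TTGCNNAA (C/EBP-like).
Ly6c2: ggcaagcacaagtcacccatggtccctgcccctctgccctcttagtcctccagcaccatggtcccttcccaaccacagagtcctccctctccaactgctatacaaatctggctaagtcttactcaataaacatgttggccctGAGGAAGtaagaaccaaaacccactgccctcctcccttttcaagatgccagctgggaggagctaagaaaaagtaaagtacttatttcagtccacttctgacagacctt
Ly6c1: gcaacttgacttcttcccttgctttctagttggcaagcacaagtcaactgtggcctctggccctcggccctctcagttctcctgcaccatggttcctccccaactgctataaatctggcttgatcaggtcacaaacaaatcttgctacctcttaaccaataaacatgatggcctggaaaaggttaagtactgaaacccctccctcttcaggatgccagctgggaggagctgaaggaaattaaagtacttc
GAGGAAG was found in the Ly6c2 stretch, beginning 108 bases before the start, and is held by 10.6% of 32851 promoter stretches of this length. A second listed start of Ly6c1 had it too, beginning 127 bases before that start, although the first, shown here, did not. Both listed stretches of Ly6g also held it. The other motifs, held by 7.02%, 7.13% and 9.56% of stretches, were not found in either stretch shown, which says only that these letters are not in these windows.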

How the data were processed

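The authors deposited unnormalized UMI counts as 1 matrix of 20649 genes and 9235 barcodes that pools all tumors. Libraries were made with the 10x 3′ v3.1 chemistry, and the submitters' processing notes name Cell Ranger 1.2 (as written there), Seurat 3.1.5, R 4.0.1 and mm10. All barcodes were kept, and no doublet caller was run. Counts were summed over the barcodes of a group and divided by its total. Ratios have exact conditional binomial intervals and shares exact Clopper-Pearson intervals, at 95%, and a count of 0 has the limit of 3 counts. Calls over all genes needed a 2-fold difference of CPM + 1, the same direction in all suffixes and 10 CPM in either group. Members, groups, gene lists and rules were chosen with earlier results of these data known. The genes named are the members, gating genes, superfamily genes at 10 CPM or more, the highest 4 or 2 of each list by CPM and the 5 closest by Pearson r of log2(CPM + 1). Some genes that this rule names are not reported here. Coordinates and coding sequences are from GENCODE M21 (GRCm38) and promoters from RefSeq (GRCm38.p6). Alternatives changed the order and thresholds of the rules, the treatment of lymphocyte UMIs, the weighting and depth of barcodes and the suffixes included. Tools were numpy 2.4.6, scipy 1.17.1, pandas 2.3.3 and matplotlib 3.10.9.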

Additional observations from a re-analysis of the deposited data

Results flagged for a closer look

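Ly6c1 in C1q-high cells of suffix 6 stood apart from the other 5 suffixes. It was 44.3 CPM there, and the next highest suffix had 22.7 CPM, a gap of 0.683 of the whole range. Among 15 sets of 6 values looked at (5 members in 3 groups) this was the 1 that stood apart in this way, and chance gives about 1 in 20. Ly6c2, Ly6a and Ly6e of C1q-high cells were also highest in suffix 6, at 129, 1507 and 1108 CPM.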

How the results depend on the processing

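Of 84 values under alternatives, 56 stayed within the counting interval of the reported value, 28 moved beyond it and 0 changed direction. The cause of each move was not tested. Early monocytes against C1q-high cells gave Ly6c2 folds of 5.40 with each rule applied alone, 10.96 without lymphocyte UMIs, 12.98 with stricter thresholds, 9.68 with thresholds per 10000 UMIs, 8.74 as a mean over barcodes, 8.57 without the deepest 5% of barcodes and 7.15 to 8.37 with a suffix left out. Ly6i gave 5.16 with each rule alone, 11.3 with stricter thresholds, 9.14 with thresholds per 10000, 8.61 without the deepest barcodes and 6.35 to 9.08 with a suffix left out. Between Rsad2-positive and Rsad2-negative cells, Ly6a gave 1.48 with lymphocyte UMIs kept, 1.47 with thresholds per 10000, 1.68 as a mean over barcodes and 1.46 to 1.65 with a suffix left out, and Ly6i gave 1.92 with stricter thresholds, 2.18 with thresholds per 10000 and 1.59 to 1.90 with a suffix left out. The difference in Ly6i shares was 4.04 points thinned to 500 UMIs, 13.3 thinned to 2000 and 25.1 without thinning, and 9.20 to 10.2 with a suffix left out. Ly6d in pDCs over the monocyte/macrophage set was 26.4 with lymphocyte UMIs kept, and 439 to 1199 with a suffix left out, lowest without suffix 6 and 480 without suffix 7. Without suffix 5, which held the 1 UMI of the set, it had no value. Ly6g in neutrophils over the set was 12.1 to 44.4 with a suffix left out, highest without suffix 6, and 8.71 with stricter thresholds. Of 54 levels of a member in a group with 10 or more UMIs, 9 moved over 1.5 times when 1 suffix was left out, an alternative added after the data were seen. In B cells Ly6a became 323 CPM without suffix 6, and Ly6c1 and Ly6c2 48.1 and 309 CPM without suffix 4. In NK cells Ly6a became 176 CPM without suffix 6 and Ly6i 2.82 CPM without suffix 8. In Foxp3 T cells Ly6c2 became 85.8 CPM without suffix 7. In pDCs Ly6d became 8.27 CPM without suffix 6. In Rsad2-positive macrophages Ly6d became 0.248 CPM without suffix 7 and Ly6g 0.0585 CPM without suffix 6. The order of the groups does not enter the monocyte/macrophage set, so applying each rule alone was not run for the values that use the set only. No paired analysis was possible because the barcode suffixes match no sample label, so tumors of the 2 treatments could not be paired. Cell groups were compared within each suffix. Ly6d, Ly6g and Ly6k were limited by counts of 191, 113 and 28 UMIs in all.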
